A study of Mus musculus with 2 samples.

Results

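Sim1 neurons are hypothalamic neurons that carry RNA of Sim1, a bHLH-PAS transcription factor. Sim1 is needed for the formation of the neurosecretory and autonomic neurons of the paraventricular and supraoptic nuclei, where it acts with its partner Arnt2 and upstream of Pou3f2. These neurons are mostly glutamatergic and are divided by peptide into oxytocin, vasopressin, corticotropin-releasing hormone (CRH), thyrotropin-releasing hormone (TRH) and somatostatin classes. Loss of Sim1 causes overeating in mice and people, and the melanocortin receptor Mc4r acts on feeding through Sim1 neurons. The data examined here are single-nucleus RNA counts of hypothalamic nuclei sorted by NeuN, which marks the nuclei of neurons, from wild-type male C57BL/6J mice aged 10 to 12 weeks. The nuclei were sequenced as 1 pooled gene expression library together with 1 library of hashtags, which are barcoded antibodies against the nuclear pore that mark the nuclei of each preparation before pooling. The labels name the tissue as the arcuate nucleus, whereas the feature file names 2 hashtags, ARC and PVH, and does not spell the second name out. Nuclei cannot be assigned to mice, so the library is a single sample without replicates, and no test was made between sets of nuclei.

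The Sim1 nuclei were chosen by measured values. A nucleus had to pass the filters (over 800 but under 5000 genes, no more than 12000 unique molecular identifiers or UMIs, each standing for 1 captured RNA molecule, and a mitochondrial share of UMIs up to 1%), to carry at most 0.5 times as many ARC as PVH hashtag UMIs, and to hold at least 1 Sim1 UMI. Of 11409 barcodes in the matrix, 10170 passed the filters, 3743 of these were on the PVH side of the hashtag limit and 1028 of the PVH-side nuclei held Sim1, which is 27.5% of them (26.0 to 28.9). The remaining 2715 PVH-side nuclei are the comparison throughout and are called other PVH-side nuclei. Sim1 itself, and the PVH hashtag, are therefore no finding. Sim1 nuclei held a median of 5520.5 UMIs (1028 to 11857) and the other PVH-side nuclei 4595 (1038 to 12000). Levels are UMIs of a gene per 1000000 UMIs summed over all nuclei of a set (CPM), and all intervals are exact 95% intervals, Poisson for levels, binomial for shares of nuclei and conditional binomial for ratios of levels. They cover counting error only, not differences between mice or between nuclei.

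The hashtags separated the nuclei weakly. The median Sim1 nucleus carried 48 ARC and 128 PVH hashtag UMIs, and the median over all nuclei that passed the filters was 60 and 91. HTODemux, the Seurat function that assigns nuclei to hashtags, called 818 of the 1028 Sim1 nuclei PVH, 55 doublets and 155 negative, and called 0 of them ARC. The limit also cut through a continuous range. Of the 775 nuclei just inside it, with ARC to PVH ratios above 0.45 and up to 0.5, 182 (23.5%) held Sim1, with median hashtag counts of 53 and 110, and of the 546 just outside it, up to 0.55, 136 (24.9%) did, with medians of 54 and 103. Sim1 nuclei just inside held Pou3f2 at 90.2 CPM and Slc17a6 at 106 CPM, and those just outside held them at 90.1 and 106 CPM.

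The transcription factor genes Pou3f2, Tbx3 and Isl1 were followed along the hashtag ratio, since the rule did not use them. Pou3f2, which acts downstream of Sim1, was seen in 18.2% of nuclei at ratios above 0.2 and up to 0.3 and in 1.99% at ratios above 1.5 and up to 2. Tbx3, a factor of the arcuate nucleus and its surroundings, went from 1.69% to 19.5% between the same bins, and Isl1, which is expressed in many arcuate neurons, from 17.2% to 43.4%. Sim1 was in 33.1% and 2.39% of the nuclei of these bins. Median depths of the bins were 5344.5 and 4988 UMIs.

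**Figure D1:**
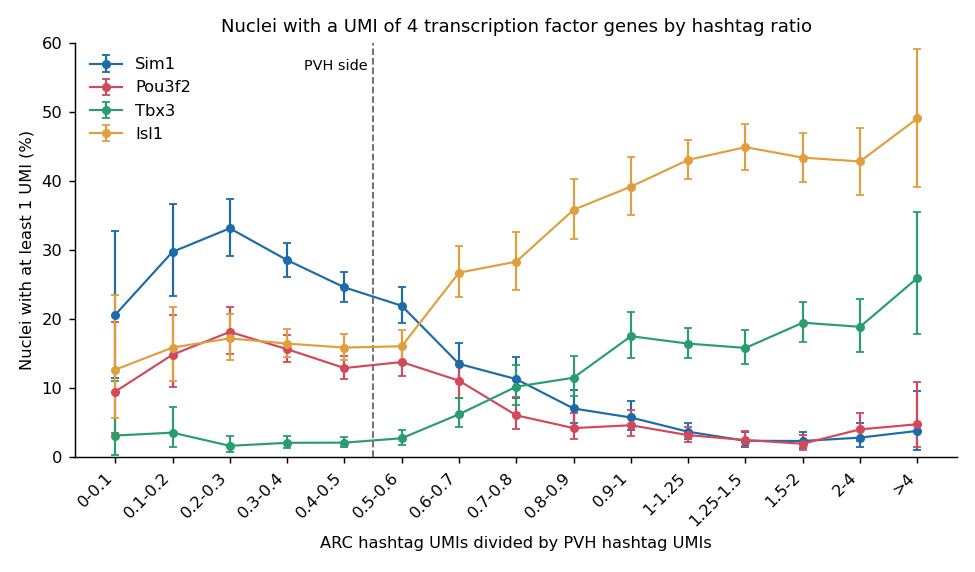
Share of nuclei with at least 1 UMI of Sim1, Pou3f2, Tbx3 or Isl1 (%, vertical axis) in bins of the ratio of ARC to PVH hashtag UMIs (horizontal axis), over nuclei that passed the filters; bars are exact 95% binomial intervals and the dashed line is the limit of 0.5. Pou3f2 follows Sim1 and is at 1.99% between 1.5 and 2, where Tbx3 is at 19.5%.

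The label was then checked against its markers. Slc17a6, the vesicular glutamate transporter of the hypothalamus, was at 114 CPM in Sim1 nuclei (105 to 122) and at 60.9 CPM in other PVH-side nuclei (56.8 to 65.3), a ratio of 1.87 (1.68 to 2.07). A Slc17a6 UMI was found in 46.1% of Sim1 nuclei, 21.4% of other PVH-side nuclei and 7.95% of 88 nuclei with markers of non-neuronal cells, whose median depth was 3736.5 UMIs. Of these 88 nuclei, only 19 were on the PVH side. Another 3 held at most 0.5 times as many PVH as ARC hashtag UMIs, and 66 lay between. After thinning of each nucleus to 1000 UMIs the shares were 10.0%, 5.08% and 1.14%, in the same order. Otp, a homeobox factor of the paraventricular and arcuate lineages, was at 39.5 CPM (34.7 to 44.9) against 11.2 CPM (9.47 to 13.2), a ratio of 3.53 (2.86 to 4.36), and was seen in 18.9% of Sim1 nuclei, 5.05% of other PVH-side nuclei and 2.27% of non-neuronal nuclei. Mc4r gave 12 UMIs in the 1028 Sim1 nuclei and 7 in the 2715 others, a ratio of 3.72 (1.35 to 11.1) that rests on these few counts. It was seen in 1.07% of Sim1 nuclei, close to the 1.14% of non-neuronal nuclei, where it gave 1 nucleus of 88. The neuronal genes Snap25 and Tubb3 had ratios of 1.02 and 1.01. Syt1, a calcium sensor of synaptic vesicles, was lower at 799 CPM against 1422 CPM. None of the Sim1 nuclei held 4 or more genes of a non-neuronal marker list, compared with 19 of the other PVH-side nuclei.

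Slc17a6 and Otp thus fit the label, and Mc4r is too sparse to bear on it. Of the Sim1 nuclei, 426 (41.4%) held Slc17a6 and no Slc32a1, 74 (7.20%) held Slc32a1 and no Slc17a6, 48 (4.67%) held both and 480 (46.7%) held neither. Slc32a1 is the vesicular transporter of GABA and glycine. It was at 21.5 CPM in Sim1 nuclei (18.0 to 25.5), 44.1 CPM in other PVH-side nuclei (40.5 to 47.8) and 13.1 CPM in non-neuronal nuclei (4.25 to 30.5). Gad2, a GABA-synthesizing enzyme, was at 52.0 CPM (46.4 to 58.1), 166 CPM (159 to 173) and 62.8 CPM (40.2 to 93.4) in the same sets. Gad1, the other such enzyme, was in 7.49% of Sim1 nuclei, 23.9% of other PVH-side nuclei and 7.95% of non-neuronal nuclei. Summed over all Sim1 nuclei, Gad1 and Gad2 were thus not detectably higher than in the non-neuronal nuclei. Gad2 was higher in 2 of the groups described further on. The non-neuronal nuclei had passed NeuN sorting and were chosen by marker genes alone. Whether some of them also held RNA of a neuron was not tested. A Slc32a1 UMI was in 11.9% of Sim1, 18.2% of other PVH-side and 5.68% of non-neuronal nuclei, and after thinning to 1000 UMIs in 2.24%, 4.27% and 1.14%. Of the 7 listed markers of GABA neurons, 7 were 2-fold lower in Sim1 nuclei, with a median log2 ratio of -2.16. Over all genes with at least 50 UMIs in both sets together, 1.97% were 2-fold lower.

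Across all genes, 14244 had at least 50 UMIs over both sets. Of these, 175 (1.23%) were at least 2-fold higher in Sim1 nuclei and 280 (1.97%) at least 2-fold lower, with Sim1 itself left out, and the median log2 ratio was -0.03. A second comparison used the 580 other PVH-side nuclei that held Slc17a6, so that glutamatergic neurons stood on both sides. There 92 of 12257 genes (0.751%) were 2-fold higher and 112 (0.914%) 2-fold lower. Both comparisons share the Sim1 nuclei, and the second is a subset of the first.

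Transcription factors of the lineage were the first group examined. Of 13 factors listed besides Sim1, 10 had enough UMIs, 6 were 2-fold higher and 0 were 2-fold lower, with a median log2 ratio of 1.2. Over all tested genes 1.23% were 2-fold higher and 1.97% 2-fold lower. The list was drawn up with earlier results of these data known. Pou3f2, a POU-domain factor needed for the CRH, oxytocin and vasopressin neurons, was the strongest, at 84.5 CPM (77.4 to 92.1) against 20.6 CPM (18.2 to 23.2), a ratio of 4.10 (3.54 to 4.77). The helix-loop-helix factor Ebf3 had a ratio of 3.59 (3.07 to 4.21), Sim2, the paralog of Sim1, 2.91 (2.11 to 4.02), Nkx2-2 2.40 (1.5 to 3.85) and the forkhead factor Foxp2 2.20 (2.05 to 2.35). Arnt2, the partner of Sim1, was at 205 against 138 CPM, a ratio of 1.49 (1.38 to 1.60). Cux2 was the only listed factor with a ratio below 1 and an interval that excluded 1 (0.83, 0.74 to 0.92).

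Against the Slc17a6 nuclei without Sim1, Pou3f2 kept a ratio of 3.05 (2.42 to 3.89), and was the only factor of the list past 2-fold among 9 with enough UMIs. Over all genes tested there, 0.751% were 2-fold higher. Otp came to 1.99 (1.5 to 2.68), Ebf3 to 1.63 (1.33 to 1.99), Sim2 to 1.63 (1.07 to 2.57) and Foxp2 to 1.37. The position of Pou3f2 is chromosome 4, 22482780 to 22488366, minus strand, and that of Otp chromosome 13, 94875602 to 94885130, plus strand, on GRCm38.

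Factors of nearby regions went the other way. Of 24 listed, 17 had enough UMIs, and 0 were 2-fold higher and 12 were 2-fold lower, with a median log2 ratio of -2.21. The shares over all tested genes were 1.23% and 1.97%. Dlx genes, which set up GABA neurons of the forebrain, were among the lowest. Dlx5 gave 2 UMIs in Sim1 nuclei and 101 in the others (ratio 0.04, 0.01 to 0.16), and Dlx6 gave 3 and 75 (0.09, 0.02 to 0.26). Meis2, a homeobox factor of subpallial neurons, was at 7.71 against 69.6 CPM (0.11, 0.08 to 0.15), Lhx1 at 1.97 against 16.1 CPM (0.12, 0.06 to 0.22) and Tcf7l2, a Wnt-pathway factor abundant in thalamic neurons, at 5.25 against 40.3 CPM (0.13, 0.09 to 0.19). Nkx2-1, which specifies the ventral hypothalamus, was at 0.984 against 7.12 CPM (0.14, 0.05 to 0.31), and Isl1 at 13.1 against 57.9 CPM (0.23, 0.18 to 0.29). Lhx5, a factor of the mammillary region, was at 11.8 against 7.04 CPM (1.68, 1.22 to 2.31), and Onecut2 had a ratio of 1.02 (0.81 to 1.27). Against the Slc17a6 nuclei, 6 of 9 factors with enough UMIs were still 2-fold lower, namely Tcf7l2 at 0.07 (0.05 to 0.11), Lhx9 at 0.10 (0.04 to 0.20), Prox1 at 0.22 (0.15 to 0.31), Meis2 at 0.34 (0.23 to 0.50), Isl1 at 0.43 (0.31 to 0.58) and Dlx1 at 0.49 (0.27 to 0.86). In that comparison 0.914% of all tested genes were 2-fold lower. Nkx2-1 gave 6 and 19 UMIs in these sets, too few for this count. Lhx5 had a ratio of 1.01 there.

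**Figure D2:**
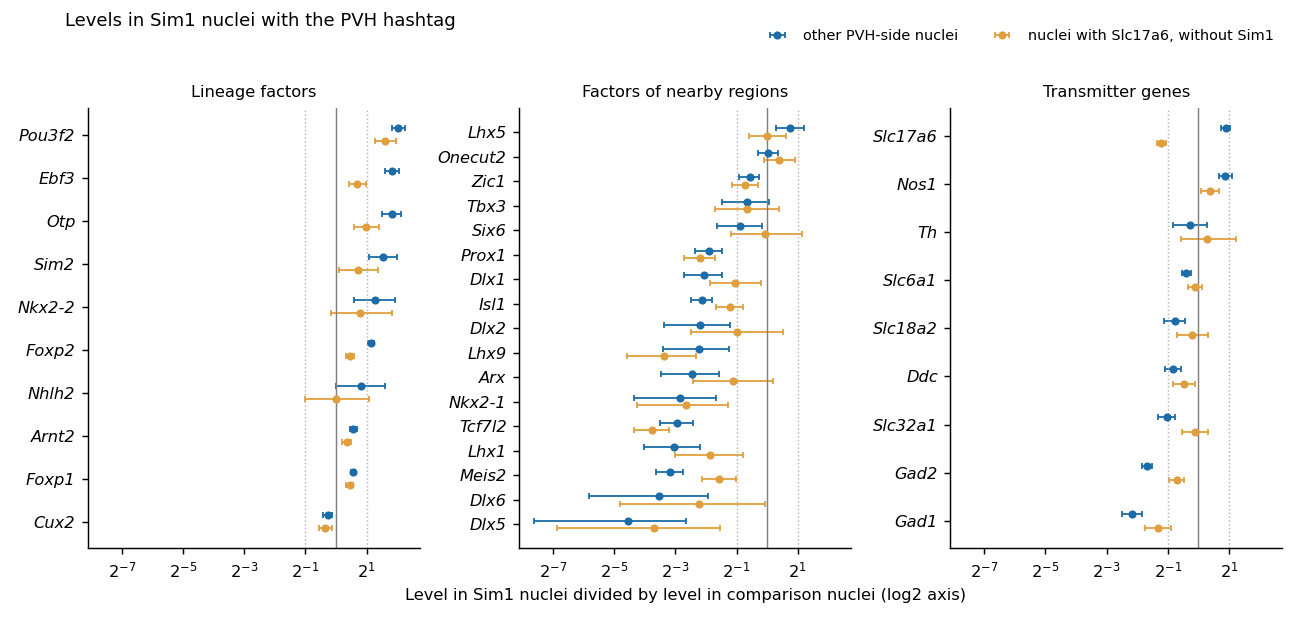
Level in Sim1 nuclei with the PVH hashtag divided by the level in the other PVH-side nuclei (blue) or in PVH-side nuclei with Slc17a6 and without Sim1 (orange) on a log2 axis, for listed genes with at least 50 UMIs over Sim1 and other PVH-side nuclei; bars are exact 95% intervals of the ratio, the solid line is equality and dotted lines are 2-fold. Slc17a6 chose the orange nuclei, so its orange point is no finding, while Pou3f2 lies past 2-fold in both comparisons and Slc32a1 goes from 0.488 to 0.917.

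By rule, the 20 genes with the highest ratios were named, without Sim1, predicted and mitochondrial genes. These ran from 6.74-fold to 3.20-fold. Pla2r1, a receptor for secreted phospholipases A2, led with 84 against 27 UMIs (13.8 against 2.04 CPM, interval of the ratio 4.32 to 10.8), followed by Smim3, Rufy4, the dynein gene Dnah8, Myocd, a coactivator of serum response factor, Ly75 and Ahnak2. Next to Pou3f2, Ebf3 and Otp, the list held 2 more homeobox genes, Uncx at 57.9 against 14.5 CPM (ratio 3.98, 3.33 to 4.78) and Lhx2 at 3.75. It also held Lgr6, a receptor for R-spondins, at 3.85, the focal adhesion gene Tns1 at 88.4 against 23.2 CPM, the integrin Itgb6, Cpt1a, which carries fatty acids into mitochondria, F13a1, the collagen gene Col27a1, Stxbp6 at 140 against 43.7 CPM and Plpp4. All 20 intervals lay above 1 against the Slc17a6 nuclei too, and 17 of the 20 were past 2-fold there.

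The 10 lowest genes were Sox10, Dlx5, Mobp, Gjc3, Bcas1, Dlx6, Bcas1os2, Dlx6os1, Meis2 and Lhx1os. Sox10, a factor of oligodendrocytes, gave 0 UMIs in Sim1 nuclei and 51 in the others (ratio 0, 0 to 0.16). Dlx6os1, an antisense RNA of Dlx6, was at 13.1 against 119 CPM (0.11, 0.09 to 0.14). Dlx6os1 overlaps Dlx6 and Bcas1os2 overlaps Bcas1 on the opposite strand, so the values of these 4 genes are uncertain. Sox10, Mobp, Gjc3 and Bcas1 are oligodendrocyte genes. Of the 8 listed oligodendrocyte markers, 7 were 2-fold lower in Sim1 nuclei, with Mbp at 34.1 against 76.8 CPM, and in the absence of the 19 non-neuronal nuclei from the comparison 1 of the 7 with enough UMIs was. That gene was St18 (0.18, 0.13 to 0.24), and Mbp came to 0.81. The 19 nuclei were chosen by genes of such lists, this one included, so their removal had to lower these genes in the other nuclei. Of the 9 tested markers of astrocytes, microglia, oligodendrocyte precursors, tanycytes or ependyma and vessels, 1 was 2-fold higher in Sim1 nuclei, Vim, at 32 against 29 UMIs (2.39, 1.40 to 4.10), and 0 were 2-fold lower. Over all tested genes these shares were 1.23% and 1.97%.

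Called genes often lay side by side in the genome. Of the 175 higher genes, 122 had another tested gene within 50000 bases, and for 40 of these (32.8%) such a neighbour was also 2-fold higher. Of all neighbours, 19.2% were called higher, against 1.23% of all tested genes. Examples are Tns1 with Rufy4 on chromosome 1, and Pla2r1 with Ly75 and Itgb6 on chromosome 2, between 60292103 and 60722643. Among the lower genes 26.1% of neighbours were called lower, against 1.96% of all tested genes. Overlapping genes counted as neighbours, and many pairs held a predicted gene. Some pairs were a gene and its opposite-strand RNA, such as Kcnmb4 with Kcnmb4os2 among the higher and Dlx6 with Dlx6os1 among the lower genes.

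By rule, the 10 genes with values most like Sim1 were taken across the 3743 PVH-side nuclei, by Pearson's correlation of log-normalized values. Cacna2d1, an auxiliary subunit of calcium channels, had the highest at 0.34, followed by the RNA-binding gene Rbms1 at 0.31, the phosphodiesterase Pde4b at 0.31, Tns1 at 0.30, Rbms3 at 0.29, Pou3f2 at 0.29, the potassium channel subunit Dpp6 at 0.27, and Elavl2, Adam23 and Necab1 at 0.27. All points share 1 library, many values are 0, and depth was higher in Sim1 nuclei, so these are weak correlations given as a description.

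Among Sim1 nuclei, most carried few Sim1 UMIs. There were 475 with 1, 271 with 2, 149 with 3 and 133 with 4 or more, up to 8. After thinning to 1000 UMIs, 31.7% of the chosen nuclei still held Sim1, so a nucleus without a Sim1 UMI is not shown to lack Sim1 RNA. Nuclei with a single Sim1 UMI already stood apart from those with none. Pou3f2 was at 20.6 CPM with none, 71.1 with 1, 98.9 with 2, 74.2 with 3 and 108 CPM with 4 or more Sim1 UMIs, and Otp was at 11.2, 39.4, 31.3, 44.5 and 49.0 CPM. Slc17a6 was at 60.9 CPM with none and between 111 and 118 CPM in the others. Dlx6os1 was at 119 CPM with none, 18.0 with 1 and between 8.52 and 10.6 CPM above that, and Gad1 at 63.8, 19.5, 7.51, 15.9 and 9.59 CPM. Median depth increased from 4595 to 5223, 5504, 6006 and 6444 UMIs along these classes.

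**Figure D3:**
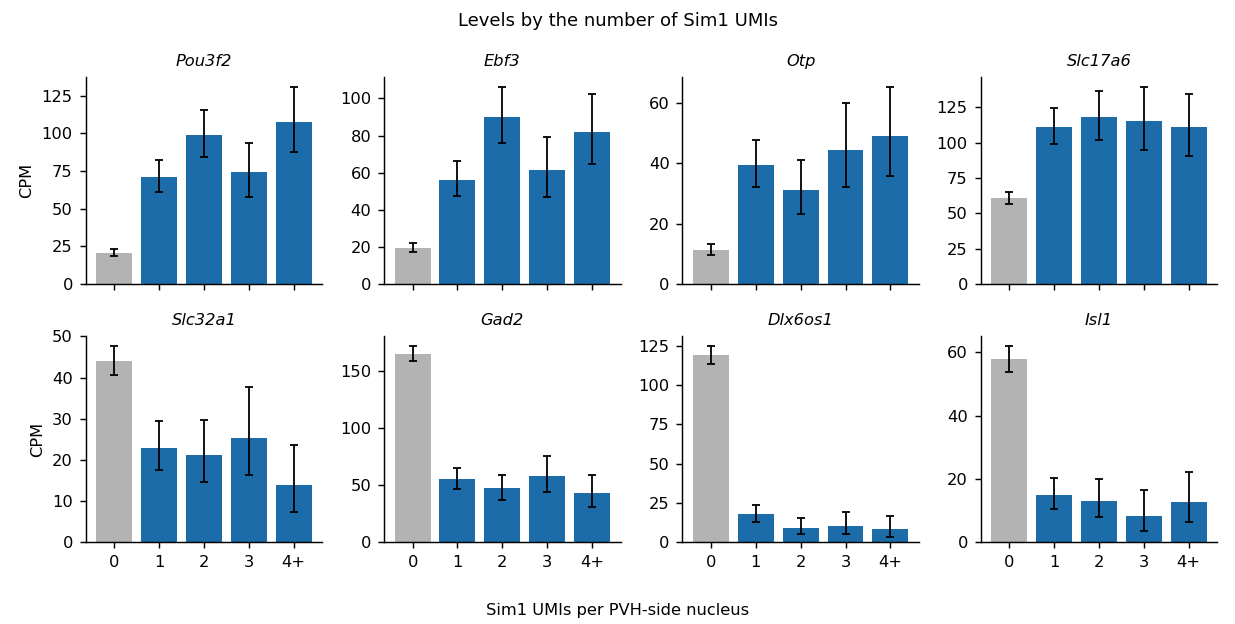
Level of 8 genes (CPM) in PVH-side nuclei with 0 (grey), 1, 2, 3 or at least 4 Sim1 UMIs (blue), from left to right; bars are CPM of summed UMIs and whiskers exact 95% Poisson intervals. For Slc17a6 the 4 blue classes lie between 111 and 118 CPM and the grey class at 60.9 CPM, and Dlx6os1 is at 119 CPM in the grey class.

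The neuropeptide genes differed little as a list. Of 26, 22 had enough UMIs, 2 were 2-fold higher (Hcrt and Nxph4, with 28 and 39 UMIs in Sim1 nuclei) and 0 were 2-fold lower. Over all tested genes these shares were 1.23% and 1.97%. The median log2 ratio was -0.01. Several of them were also found in the non-neuronal nuclei, though whether some of these also held RNA of a neuron was not tested. Oxt, the oxytocin gene (chromosome 2, 130576173 to 130577054), was at 695 CPM in Sim1 nuclei (674 to 716), 582 CPM in other PVH-side nuclei (569 to 595) and 788 CPM in non-neuronal nuclei (701 to 882). It was seen in 92.5%, 88.4% and 93.2% of these nuclei. Avp, the vasopressin gene next to it (130580620 to 130582554), was at 377, 308 and 395 CPM and was seen in 77.4%, 74.1% and 80.7%. Agrp and Pomc, peptides of arcuate neurons, were at 148 and 83.7 CPM in Sim1 nuclei and 152 and 120 CPM in non-neuronal nuclei, and had ratios of 0.96 and 0.86 to the other PVH-side nuclei. A UMI of these 4 genes therefore does not mark a cell type here, and mean levels say little about which nuclei made the RNA.

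The distribution over nuclei was different. Oxt ranged from 0 to 94 UMIs per Sim1 nucleus with a median of 3, and from 0 to 30 in other PVH-side nuclei with the same median. At least 10 Oxt UMIs were found in 95 Sim1 nuclei (9.24%, 7.54 to 11.2), in 28 other PVH-side nuclei (1.03%, 0.69 to 1.49) and in 1 of 88 non-neuronal nuclei (1.14%). At least 10 Avp UMIs were found in 39 Sim1 nuclei (3.79%, 2.71 to 5.15), 6 other PVH-side nuclei (0.22%, 0.08 to 0.48) and 1 non-neuronal nucleus. Among nuclei of 3000 to 8000 UMIs the Oxt shares were 7.23% against 1.00%, and the Avp shares 3.61% against 0.17%. When nuclei were thinned to 1000 UMIs, at least 3 Oxt UMIs remained in 4.67% of Sim1, 3.02% of other PVH-side and 12.5% of non-neuronal nuclei, so at that depth the share in Sim1 nuclei was below that in non-neuronal nuclei. For Avp these shares were 1.95%, 0.55% and 0%, the last being 0 of 88. No Sim1 nucleus held 10 or more UMIs of both genes.

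**Figure D4:**
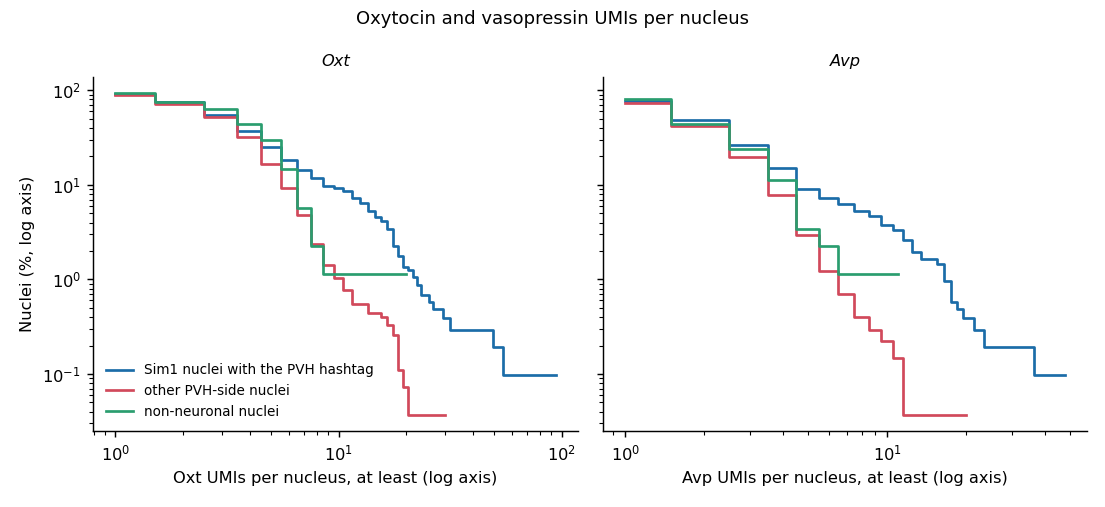
Share of nuclei (%, log axis) with at least the number of Oxt (left) or Avp (right) UMIs on the horizontal axis (log), for Sim1 nuclei with the PVH hashtag (blue), other PVH-side nuclei (red) and non-neuronal nuclei (green). The curves run together at low counts and part above them, so that 9.24% of Sim1 nuclei and 1.03% of other PVH-side nuclei hold 10 or more Oxt UMIs.

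Other peptides were sparse. Trh, the TRH gene, was at 43.3 against 28.8 CPM (1.51, 1.28 to 1.77) and was seen in 18.4% of Sim1, 12.4% of other PVH-side and 14.8% of non-neuronal nuclei, with 3 or more UMIs in 15 Sim1 nuclei (1.46%), 7 others (0.26%) and 0 of 88 non-neuronal nuclei, which allows a share of up to 4.11%. Crh gave 31 UMIs, each in a different Sim1 nucleus, and 50 in the others (1.34, 0.83 to 2.15), and none in non-neuronal nuclei. Sst was seen in 34.0% of Sim1 nuclei and 29.5% of non-neuronal nuclei and had a ratio of 0.86.

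Peptide processing and receptor genes followed. Of 12 processing and granule genes, Pcsk1, a prohormone convertase, was 2-fold higher at 73.7 against 27.6 CPM (2.67, 2.32 to 3.08; 2.02 against the Slc17a6 nuclei), and Sytl4, a granule docking gene, 2-fold lower with 7 against 67 UMIs. Pcsk2, the other main convertase, was at 438 against 320 CPM (1.37) and Cadps2, which primes dense-core vesicles, at 320 against 207 CPM (1.55). Granins lay near equality, with Scg2 at 0.96 and Chga at 0.77. Of 34 receptors for feeding and stress signals, 25 had enough UMIs, 0 were 2-fold higher, 1 was 2-fold lower, the opioid receptor Oprd1 (0.31, 0.21 to 0.45), and the median log2 ratio was -0.05. Over all tested genes 1.23% were 2-fold higher and 1.97% 2-fold lower, so counts of 0 or 1 say little about lists this short. Below that limit, Ghr, the growth hormone receptor, was at 411 against 210 CPM (1.96, 1.85 to 2.06), Calcr, the calcitonin receptor, had 1.70 (1.44 to 2.02), Glp1r 1.67 (1.06 to 2.62) and the orexin receptor Hcrtr2 1.58 (1.39 to 1.80). Lepr, the leptin receptor, was at 8.53 against 10.2 CPM (0.84, 0.59 to 1.16), which the counts do not separate from 1. Of 8 steroid and thyroid hormone receptors, Esr2, the estrogen receptor beta of oxytocin neurons, was 2-fold higher at 25.3 against 7.95 CPM (3.18, 2.46 to 4.11), while Esr1 was at 39.9 against 46.3 CPM. The mineralocorticoid receptor Nr3c2 had a ratio of 1.49 and the glucocorticoid receptor Nr3c1 1.15. Nos1, which makes nitric oxide in many magnocellular neurons, was at 58.7 against 31.9 CPM (1.84, 1.59 to 2.12).

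To describe how Sim1 nuclei varied among themselves, they were grouped by Leiden clustering of 2000 variable genes without Sim1. This gave 15 groups of 14 to 162 nuclei. The genes below formed the groups, so their levels are a description. Each comparison is with the other Sim1 nuclei. Sim1, which was left out, ranged from 220 to 448 CPM over the groups, and the median ratio of ARC to PVH hashtag UMIs from 0.34 to 0.40. Slc17a6 ranged from 68.5 to 199 CPM and was found in all groups. Groups are called by their number or by a leading gene.

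The Lgr6 group (group 3, 97 nuclei, median 7343 UMIs) passed the oxytocin-like markers with Oxt, Kcnmb4 and Esr2. Of the other 3 markers of that list, Calb1 was at 1.48-fold and Cnr1 at 0.82-fold of the other Sim1 nuclei, and Reln was far lower, at 5.42 against 148 CPM. Its nuclei held 0 to 94 Oxt UMIs with a median of 14, and medians in the other groups were 2 or 3. It held 81 of the 95 Sim1 nuclei with 10 or more Oxt UMIs. Oxt was at 2038 CPM there and between 419 and 639 CPM in the other groups. Lgr6 was at 61.0 against 0.56 CPM, with 45 of all 48 Lgr6 UMIs. Nos1 was at 224 against 36.0 CPM, and Oprk1, the kappa opioid receptor, at 63.7 against 9.15 CPM. Kcnmb4, Esr2 and Nos1 were not particular to the group. Kcnmb4 was at 122 CPM there and 168 CPM in group 5, and Nos1 was at 284 CPM in group 13. Esr2 was at 47.5 CPM there, 123 CPM in group 2 and 51.6 CPM in group 12. Of the markers passed, only Oxt was highest in group 3. The Pla2r1 group (group 5, 89 nuclei) held 36 of the 39 nuclei with 10 or more Avp UMIs, a median of 9 Avp UMIs (0 to 48) against 1 or 1.5 in the other groups, and Avp at 1581 CPM against 231 to 305 CPM. Only 2 vasopressin-like markers passed (Avp and Kcnmb4), so it was not given that name. Pla2r1 was at 112 against 4.32 CPM, Ebf3 at 286 against 49.1 CPM and Pou3f2 at 224 against 71.1 CPM, and Galntl6, a GalNAc-transferase-like gene, at 6302 against 1018 CPM.

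The largest group (group 1, 162 nuclei, median 4532.5 UMIs) was led by Ahnak2 and Agtr1a, an angiotensin II receptor at 70.4 against 6.40 CPM. It passed the CRH-like markers with Crh (13 UMIs, 16.6 against 3.39 CPM), Scgn (18 UMIs, 23.0 against 0.75 CPM) and Nr3c1 (411 against 68.9 CPM). The other 3 markers of the list were lower there, Pcsk1 at 26.9 against 80.5 CPM, Tac1 at 8.96 against 17.3 CPM and Crhr1 with 2 UMIs. The TRH gene was spread over several groups. Group 10 (46 nuclei) passed TRH-like markers with Trh (126 CPM), Cartpt and Thrb, the thyroid hormone receptor beta, at 670 against 133 CPM, and held 5 of the 12 Mc4r UMIs. The Etv1 group (group 13, 34 nuclei) passed them with Trh (100 CPM), Pcsk1, Ucn3 (5 UMIs) and Nhlh2 (3 UMIs), but Thrb was lower there, at 63.2 against 156 CPM. In group 10, Pcsk1 was at 69.6 against 73.8 CPM and Ucn3 gave 0 UMIs. Trh was highest, at 392 CPM from 34 UMIs, in the smallest group (group 15, 14 nuclei), led by Pld1, and was at 105 CPM in the Qrfpr group (group 7, 84 nuclei). Neither passed 3 markers of the list.

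Sim2 and Pou3f2 were spread differently over the groups. Group 15 held both, but from only 15 Sim2 and 4 Pou3f2 UMIs in 14 nuclei. Whether single nuclei held both was not examined. Sim2 was at 88.1 CPM in the Qrfpr group, 85.1 in the Crhr2 group (group 11, 44 nuclei) and 173 in group 15, and at 7.16 CPM or less in the other 12. Pou3f2 was at 6.29, 21.3 and 46.1 CPM in those 3, at 2.39 CPM in the Nox4 group (group 8, 71 nuclei), with 0 UMIs in the Etv1 group and between 35.5 and 224 CPM in the other 10. The Qrfpr group also held Bdnf, a trophic factor known for its effect on feeding, at 83.9 against 15.8 CPM in the other Sim1 nuclei, and the Crhr2 group held it at 128 against 16.0 CPM. Crhr2, a receptor of urocortins, was at 92.2 against 2.92 CPM. The Rxfp2 group (group 9, 49 nuclei) held 86 of 95 Rxfp2 UMIs (324 against 1.54 CPM), passed somatostatin-like markers with Sst (162 against 70.2 CPM), Ghr (1762 against 349 CPM) and Npy1r (48.9 against 5.83 CPM), and had Eya4 among its leading genes. Its Cux2 (33.9 against 78.6 CPM) and Calb2 (2 UMIs), also on the somatostatin-like list, were lower, and Sstr1 gave 0 UMIs.

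In 2 groups GABA genes were highest. Group 4 (92 nuclei) was led by Dlx6os1 (82.8 against 5.63 CPM), with Gad2 at 112 CPM, Otp at 15.2 CPM and the lowest Sim1 of all groups. It passed 3 thalamic-like markers (Tcf7l2, Lef1 and Prox1) and 5 GABA markers without Slc32a1, and was left unnamed. Group 12 (40 nuclei), led by Arhgap28 and L3mbtl4, had Gad2 at 159 CPM and Ntng1 at 1582 CPM and passed 4 GABA markers. Both still held Slc17a6, at 91.3 and 77.4 CPM. Of the remaining groups, group 2 (101 nuclei) was led by Esr2 (123 against 13.1 CPM), group 6 (85 nuclei) by Gpr149 and Reln (681 against 84.0 CPM) with the serotonin receptor Htr2c at 902 against 223 CPM, and group 14 (20 nuclei) by Aox3 with Ebf3 at 433 CPM. Group 2 passed 4 MC4R-like markers, but Mc4r itself gave 3 UMIs there (4.43 CPM) and 5 in group 10 (21.8 CPM), so group 2 was left unnamed.

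**Figure D5:**
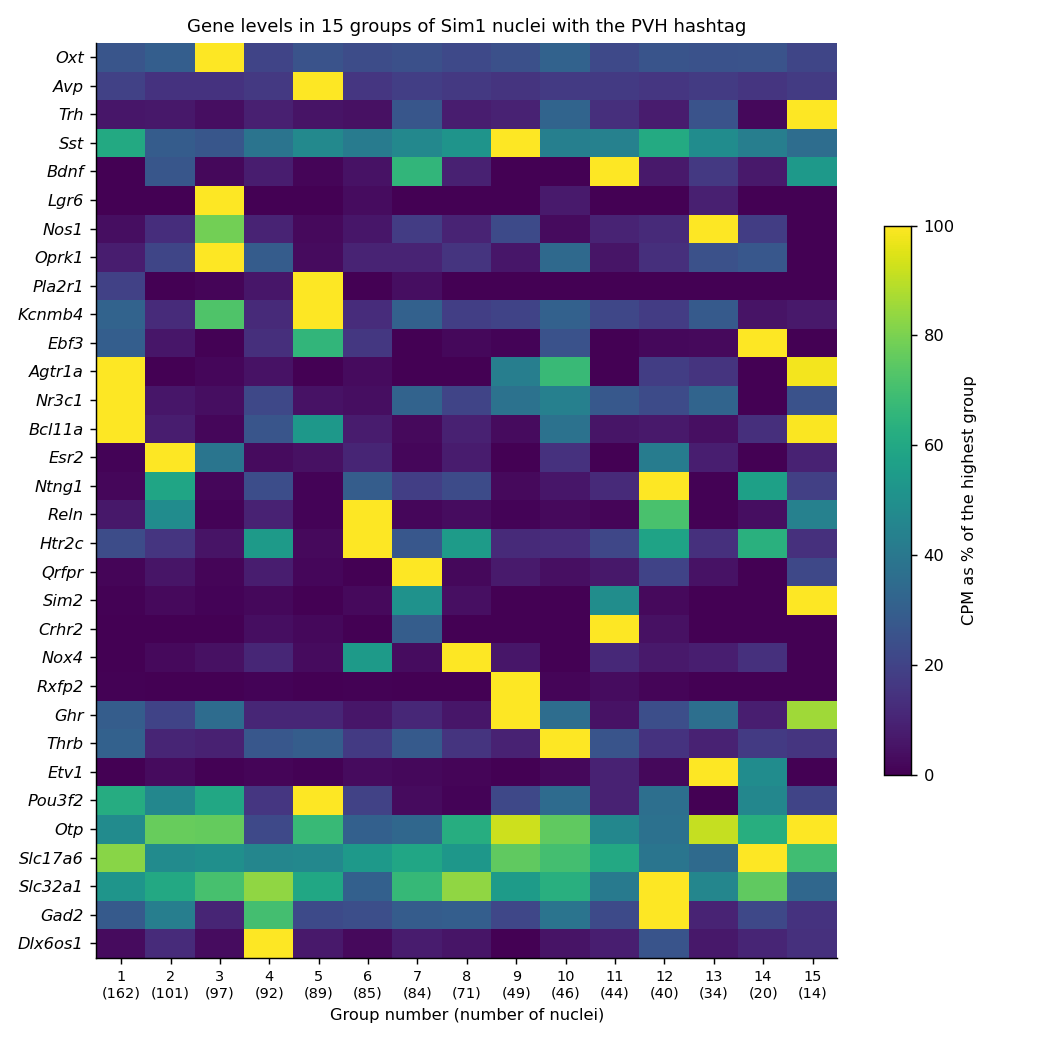
Level of listed and leading genes (rows) in 15 groups of Sim1 nuclei with the PVH hashtag (columns, with the number of nuclei in brackets), coloured by CPM as a percentage of the highest group in each row. Oxt peaks in group 3 at 2038 CPM and Avp in group 5 at 1581 CPM, and Slc17a6 is present in all 15 groups.

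Pairs of these genes were then looked at in 501 nuclei that the groups did not use, namely Sim1 nuclei between the hashtag limits, with ARC to PVH ratios above 0.5 and below 2. The pairs were chosen after the groups had been seen. In the 30 of these nuclei with a Pla2r1 UMI, Avp was at 1555 CPM and had a median of 9 UMIs (highest 48), against 486 CPM and a median of 2 (highest 34) in the 471 without, a ratio of 3.20 (2.81 to 3.62). Oxt went the other way (547 against 727 CPM). Bdnf was at 107 CPM in the 15 with Crhr2 and at 15.9 CPM in the rest (6.70, 2.88 to 13.9), Sim2 at 35.8 CPM in the 20 with Qrfpr against 9.38 CPM (3.82, 1.14 to 10.1), and Nr3c1 at 225 CPM in the 34 with Agtr1a against 113 CPM (1.99, 1.42 to 2.72). For Lgr6 and Oxt the sum was 2.18-fold higher in the 9 nuclei with Lgr6 (1.74 to 2.70), but the median was 3 UMIs with and without it, so a few nuclei carried the difference. The counts did not separate Crh with Agtr1a (1.35, 0.15 to 5.58), Trh with Etv1 (1.35, 0.63 to 2.59), Sst with Rxfp2 (0.88, 0.24 to 2.29) or Npy1r with Rxfp2 (3.16, 0.08 to 20) from equality. Ucn3 gave 0 UMIs in the 32 nuclei with Etv1 and 3 in the 469 without. The same pairs were looked at in the other PVH-side nuclei, which the groups did not use either. Bdnf with Crhr2 had a ratio of 7.10 there, Sim2 with Qrfpr 5.37 and Nr3c1 with Agtr1a 2.45. These pairs were thus not particular to nuclei with a Sim1 UMI. Avp with Pla2r1 had 1.70 and Oxt with Lgr6 1.38, both below the ratios in the 501 nuclei. The intervals of all these ratios lay above 1.

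These 501 Sim1 nuclei held Pou3f2 at 81.7 CPM (71.7 to 92.8), Otp at 34.0 (27.6 to 41.4), Slc17a6 at 90.0 (79.4 to 102) and Slc32a1 at 18.5 CPM (13.9 to 24.2). Among the 540 nuclei on the ARC side, with at most 0.5 times as many PVH as ARC hashtag UMIs, 16 (2.96%, 1.70 to 4.77) held Sim1, 10 of them with 1 UMI. Sim1 was seen in 2 of 88 non-neuronal nuclei (2.27%, 0.28 to 7.97); the 2 intervals overlap, and 88 nuclei are too few to separate the shares. The median depths of these sets were 5495.5 and 3736.5 UMIs. Of the 16, 8 held Pou3f2, which was at 121 CPM (64.6 to 207) from 13 UMIs, and Avp was at 1324 CPM (1115 to 1561) from 142 UMIs, against 270 CPM in all ARC-side nuclei. Over all 540 ARC-side nuclei, 6 held 10 or more Avp UMIs and the highest held 33. The spread of Avp over the 16 was not examined, so a few nuclei may carry the sum.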

How the data were processed

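The authors deposited 1 matrix of raw counts (UMIs per gene and barcode, with 32285 genes and 2 hashtag features, without normalization or filters on nuclei). Per the labels it was made with Cell Ranger 5.0 on mm10 and analysed with Seurat 4, while the matrix itself carries Cell Ranger 4.0.0 in its first lines. No cell-type annotation was used here. The 11409 barcodes were all different. Filters followed the study's methods, and the hashtag limit and the Sim1 limit were set here. Members, lists, markers and comparisons were chosen with earlier results of these data known.

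UMIs were summed over each set of nuclei with Python 3.11.15, numpy 2.4.6 and scipy 1.17.1. A gene counted as higher or lower at a ratio of CPM of at least 2 or at most 0.5 and at least 50 UMIs over both sets. The genes named are all genes of the lists, the 20 highest and 10 lowest ratios and the 10 genes most correlated with Sim1. Genes and nuclei are not replicates, so no test was made. The ratios were tested on simulated counts of the comparison with the other PVH-side nuclei (14244 genes), where 100% of 100 genes raised 4-fold and 99% of 100 genes lowered 4-fold were called, and 0.20% of the unchanged genes. The simulated sums were Poisson draws from 1 shared gene profile. The 0.20% therefore covers counting error only, not differences between nuclei, groups or mice, and is no rate of false calls in the real data. Groups came from log-normalized counts (scale factor 10000), 20 components, 15 neighbours and leidenalg 0.10.2 at a resolution of 0.55. A marker list passed when its first marker and no fewer than 3 in total reached 1.5-fold and 3 UMIs, thresholds set after the data were seen, and a leading gene needed 20 UMIs in the group. Non-neuronal nuclei held 4 or more genes of 1 non-neuronal list. Thinning to 1000 UMIs left out 0 nuclei. HTODemux was run in R 4.3.3 with Seurat 5.3.0 at a positive quantile of 0.8. No doublet caller was run. The hashtag limit and the upper limits on genes and UMIs were the only steps against doublets, so pairs that share a hashtag can remain. HTODemux called 55 of the Sim1 nuclei doublets, and these were kept. Gene positions are from GENCODE M21 on GRCm38, which holds 32235 of the 32285 gene identifiers.

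Alternatives were other hashtag limits, HTODemux singlets, no upper limits on genes and UMIs, a Sim1 limit of 2 UMIs, thinning, a window of 3000 to 8000 UMIs, removal of non-neuronal nuclei, the Slc17a6 comparison, median-ratio scaling, other count minimums and other grouping settings.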

Additional observations from a re-analysis of the deposited data

How the results depend on the processing

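The number of Sim1 nuclei depended on the rule. It was 1028 as reported, 126 with ARC hashtag UMIs at most 0.25 times the PVH hashtag UMIs, 553 with at least 2 Sim1 UMIs, and 356 with each hashtag scaled by its median, an alternative chosen after seeing the data. It lay between 885 and 1444 with HTODemux singlets, with ARC below PVH, or without upper limits on genes and UMIs. Counts of genes past 2-fold moved most with the filter on low counts. The 175 higher and 280 lower genes became 316 and 578 at 20 UMIs, 67 and 111 at 200 UMIs and 1633 and 1137 without a filter. They were 76 and 125 with the limit of 0.25 times, 92 and 177 with scaled hashtags, 79 and 174 after thinning to 1000 UMIs, and 92 and 112 against Slc17a6 nuclei without Sim1. With at least 2 Sim1 UMIs, compared with nuclei without Sim1, 421 genes were lower. The cause of these shifts was not tested.

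The log2 ratio of Slc17a6 was 0.90 as reported and 0.89 to 1.00 over its 10 alternatives. That of Slc32a1 was -1.04 and went to -0.13 against the Slc17a6 nuclei, and that of Otp was 1.82 and went to 1.29 with ARC below PVH and to 0.99 against the Slc17a6 nuclei. None of these 3 ratios changed sign under the alternatives run. The number of groups was 15, and 12, 17, 13 and 10 at a resolution of 0.3 or 1, with 30 components, and with 30 neighbours. The Lgr6 and Pla2r1 groups shared 98.9% or more of their nuclei with 1 group in each of these 4 settings. Other groups were less stable. With 30 neighbours, the 14 nuclei of group 15 fell into a group of 143 and the 20 of group 14 into a group of 162. Groups 7 and 11 fell into 1 group in 3 of the 4 settings, as did groups 4 and 8, and 57.4% of group 2 stayed together at a resolution of 1 and 56.4% with 30 neighbours. No paired analysis was possible because all nuclei come from 1 pooled library, and for the same reason no replicate could be left out.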
